A study of Homo sapiens with 28 samples.

Results

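The regions described here are the places where FOXF1 had a CUT&RUN peak in senescent but not in proliferating IMR-90 fibroblasts, and where phosphorylated c-JUN (p-c-JUN) already had a peak in the proliferating cells. The FOXF1 peaks of the 2 proliferating (Pro) and 2 senescent (Sen) libraries were joined wherever they overlapped by at least 1 bp on chromosomes 1 to 22 and X. A joined region was kept when both Sen lists and neither Pro list held a FOXF1 peak and when it overlapped a peak in both p-c-JUN Pro lists. This gave 1555 regions, which are 26.1% of the 5948 regions that gained FOXF1 and 3.42% of all 45464 FOXF1 regions. The number moves with the lists used: without FOXF1 Sen replicate 1 the rule gave 5949 regions, and without FOXF1 Pro replicate 2 it gave 3165. Over all joined regions, FOXF1 was gained at 13.1%. The gain of FOXF1 and the p-c-JUN peaks in Pro cells chose the regions, so both are described without a test.

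FOXF1 is a forkhead transcription factor of the mesenchyme, best known for its part in lung and gut development, and FOXF2 is its close relative. c-JUN is a subunit of AP-1, a dimeric factor of the JUN and FOS families that is switched on by stress and growth signals; phosphorylation of its activation domain by JUN kinases raises its activity, and AP-1 is known to mark enhancers of senescent fibroblasts. H3K27ac is an acetylation of histone H3, written by p300 and CBP, that marks active enhancers and promoters. In CUT&RUN an antibody tethers a nuclease to its target inside permeabilised cells, the nuclease releases the DNA beside it, and the released fragments are sequenced.

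IMR-90 is a fibroblast line from human fetal lung, and its ER:Ras derivative expresses oncogenic Ras fused to an oestrogen receptor domain, so that 4-hydroxytamoxifen (4-OHT) activates Ras and the cells become senescent. By their titles the libraries came from Pro cells, from Sen cells, and from Sen cells after knockdown by small interfering RNA of FOXF1 and FOXF2 (siFOXF1/2), of the JUN family, or of p300 and CBP (sip300/CBP). The treatment tags give siCtrl and 100 nM 4-OHT for 6 days for Pro and Sen libraries alike, and every library carries a senescent cell type tag, so Pro and Sen were told apart by title alone. The JUN knockdown is titled cJUN/JUND-KD while its tag reads sicJUN/JUNB/JUND. Each group had 2 libraries, except H3K27ac in Sen cells with 4, of which replicates 1 and 2 were compared with Pro and siFOXF1/2 and replicates 3 and 4 with the JUN knockdown; another pair of Sen libraries was titled as the control of sip300/CBP. One engineered cell line was used throughout. The labels do not say whether replicates were separate cultures. A p-value here therefore reflects how far these particular libraries differ, and that spread may be technical.

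The deposited files are peak lists, 1 for each of the 28 libraries, and hold no read totals. List lengths differed widely between libraries and touch every share given here. FOXF1 lists held 3441 and 11061 peaks in Pro cells and 13603 and 40537 in Sen cells, and p-c-JUN lists held from 24808 to 93443. Of the H3K27ac lists, those of Pro, of Sen replicates 1 and 2 and of siFOXF1/2 held from 60862 to 89329 peaks, Sen replicates 3 and 4 held 48859 and 26694, and the JUN knockdown held 74484 and 29606. The H3K27ac lists of the sip300/CBP comparison were short, with 8234 and 2046 peaks in the control and 4186 and 1549 after knockdown. Absence from a short list is absence of a called peak and not of the protein.

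The FOXF1 peaks that defined the regions were of middling strength. Fold enrichment here is the peak caller's own ratio at the summit, as the authors deposited it. Folds of different lists are printed side by side as a description, and no change in binding is read from them. In Sen replicate 1 the regions had a median fold of 5.38, ranging from 3.43 to 12.8, and their median rank lay at 54.5% of that list. In Sen replicate 2 the median fold was 6.19, ranging from 3.18 to 20.6, and the median rank lay at 27.6% of the list. Regions with FOXF1 in all 4 Pro and Sen lists, of which there were 2047, had stronger FOXF1 peaks in both Sen lists, with median ranks at 19.2% and 8.1%. The number of DNA fragments over each summit was solved from fold and p-value and came out whole, within 0.002 on the −log10 p scale, for 100% of the peaks examined. The median FOXF1 peak rested on 9 fragments in Sen replicate 1, with a 95% Poisson interval of 4.12 to 17.1, and on 15 in Sen replicate 2, with an interval of 8.4 to 24.7. These intervals cover counting error only.

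The p-c-JUN peaks at the same regions rested on more fragments. Medians were 18 and 19 fragments in the 2 Pro libraries, 37 and 39 in the Sen libraries, and 39 and 35 after siFOXF1/2. The median background solved with them was 1.74 and 1.51 in Pro, 2.72 and 2.59 in Sen, and 3.17 and 2.55 after siFOXF1/2. For FOXF1 in Sen it was 0.936 and 1.44. Library depth is unknown, so no difference in binding is read from these counts. Regions hardly differed in how many peaks they held. A single FOXF1 peak lay in 1548 of the 1555 regions in Sen replicate 1 and a single p-c-JUN peak in 1546 in Pro replicate 1.

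**Figure D1:**
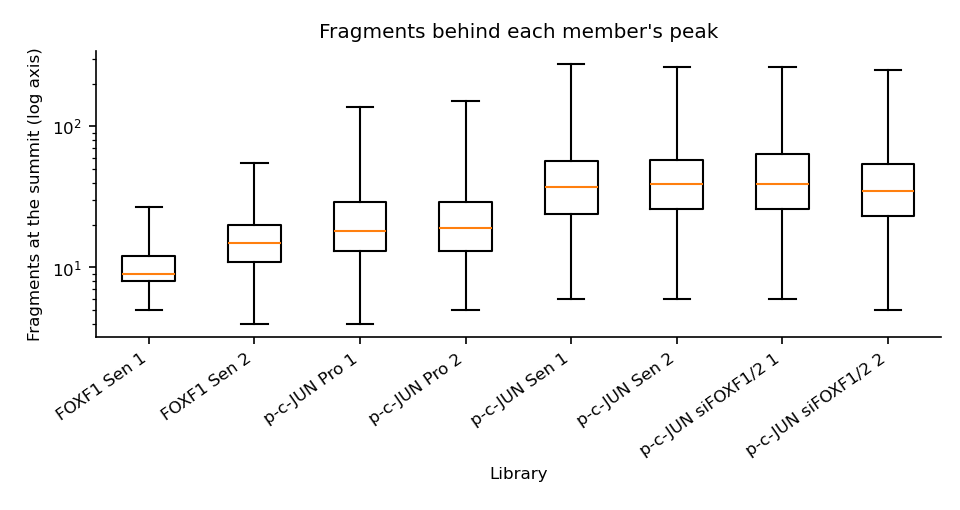
Fragments over the summit of each region's FOXF1 or p-c-JUN peak (log axis), by library. The line is the median, the box the middle quartiles and the whiskers the lowest and highest region. FOXF1 medians are 9 and 15, against 18 to 39 for p-c-JUN. Library depth is unknown, so no difference in binding is read from these counts.

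The regions with the strongest FOXF1 are extremes of the group. At chr1:114084910-114085467 (hg19, 558 bp), FOXF1 had folds of 11.8 and 14.7 in the Sen lists, resting on 22 and 41 fragments, and no peak in the Pro or knockdown lists. p-c-JUN had folds of 11.6 and 9.57 there in Pro cells, 17.9 and 13.9 in Sen cells and 14.9 and 17.5 after siFOXF1/2. H3K27ac had a peak in both Pro lists, all 4 Sen lists, both siFOXF1/2 lists and both JUN knockdown lists, with folds from 3.18 to 5.48. This region thus had called p-c-JUN and H3K27ac peaks in every one of those libraries and called FOXF1 peaks in the Sen lists alone. Its lack of a FOXF1 peak in Pro was part of the rule, and the FOXF1 knockdown lists were short.

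Other strong regions varied in H3K27ac. The region with the highest FOXF1 fold in Sen replicate 2, chr10:80383547-80383844 (298 bp), had FOXF1 folds of 11 and 20.6. Its p-c-JUN folds were 8.99 and 12.2 in Pro, 22.2 and 22.6 in Sen, and 21.6 and 22.7 after siFOXF1/2. Yet H3K27ac was called there in 1 library only, Pro replicate 1, with a fold of 4.48. At chr13:25085737-25086688 (952 bp), by contrast, H3K27ac had a peak in all 10 lists named above, with folds from 2.98 to 5.88, beside FOXF1 folds of 10.2 and 10.8.

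Regions with the strongest p-c-JUN in Pro cells varied in FOXF1. At chr12:25486790-25487503 (714 bp), p-c-JUN folds were 27.2 and 28.2 in Pro, resting on 138 and 136 fragments, 24.9 and 31.5 in Sen, and 26.5 and 24.6 after siFOXF1/2. FOXF1 folds in Sen cells were 5.8 and 7.37 there, close to the median of all 1555. At chr7:75993868-75994316 (449 bp), p-c-JUN folds were 27.2 and 31.4 in Pro and FOXF1 folds were 5.41 and 5.9. The other regions named for the strongest p-c-JUN had higher FOXF1 in at least 1 Sen list. FOXF1 folds in Sen replicates 1 and 2 were 8.07 and 9.39 at chr6:30737088-30737991 and 4.99 and 10.4 at chr9:37953864-37954239. They were 5.88 and 11.4 at chr12:112740822-112741197, against medians of 5.38 and 6.19 over the 1555. Across the 1555 regions, log2 p-c-JUN fold in Pro correlated with log2 FOXF1 fold in Sen with Pearson r of 0.04 for replicates 1 and 0.08 for replicates 2. With p-c-JUN in Sen cells the values were 0.16 and 0.28. Between replicates, r was 0.49 for FOXF1 in Sen and 0.80 for p-c-JUN in Pro. These are correlations across regions that share their libraries, and regions are not replicates. The rule chose regions by FOXF1 and by p-c-JUN in Pro, which limits the range of both. Nothing is therefore read from the low r between them.

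Just inside the limits of the rule, the region with the lowest −log10 q in the p-c-JUN list of Pro replicate 2 was chr17:61677778-61678331, with p-c-JUN −log10 q of 3.88 and 1.53 and folds of 4.81 and 3.43 in the 2 Pro lists. A further 833 regions gained FOXF1 but had p-c-JUN in exactly 1 Pro list and so were left out. The one with the highest −log10 q, at chr16:48351513-48351878, had a p-c-JUN fold of 12.6 in Pro replicate 2, where its −log10 q was 28.8, and no peak in Pro replicate 1.

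Nearly all of these regions had p-c-JUN in senescent cells and after knockdown of FOXF1 and FOXF2. In Sen cells, 98.8% and 99.7% of the 1555 regions had a p-c-JUN peak in replicates 1 and 2, and 1534 (98.6%) had one in both. After siFOXF1/2 the shares were 98.3% and 99%, and 1510 regions (97.1%) had a p-c-JUN peak in all of the Sen and siFOXF1/2 lists. The mean share was 99.3% ± 0.682 in Sen cells and 98.7% ± 0.5 after siFOXF1/2 (SD, n = 2 each). That difference of −0.579 percentage points (SE 0.598) lay within the spread of the libraries, with p = 0.667 by an exact two-sided permutation test, for which the smallest possible p is 0.333. This was 1 of 5 comparisons of 2 libraries against 2 made on these regions, and after Benjamini-Hochberg adjustment the p of each was 1. Where FOXF1 and p-c-JUN were both gained (1695 regions), 59.7% and 73.5% had p-c-JUN after siFOXF1/2. Having p-c-JUN in both Sen lists was part of the rule for that set, so some loss there comes from how it was chosen. The regions with FOXF1 in all 4 lists had 79.6% and 86.8% after siFOXF1/2, against 88.7% and 93.2% in Sen cells. Of these, the 1459 that also had p-c-JUN in both Pro lists had 94.5% and 97.5% after siFOXF1/2, against 98.1% and 98.6% in Sen cells, within 4 points of the group in each library.

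Counted region by region, p-c-JUN was lost after siFOXF1/2, meaning present in both Sen and neither siFOXF1/2 list, at 3 of the 1555 regions (0.193%). Over all joined p-c-JUN regions of that comparison 4.03% were lost. The share lost was 20.7% where both factors were gained, 3.96% where FOXF1 was in all 4 lists and 0.61% where p-c-JUN was in both Pro lists without FOXF1. The 3 regions were chr4:129209039-129209438, chr16:56978847-56979251 and chr2:9770854-9771198, and their p-c-JUN peaks in Sen cells were weak, with folds from 3.45 to 7.4. p-c-JUN was gained after siFOXF1/2 at 1 region, against 4.47% of all joined regions. Only 2 of the 1555 had no p-c-JUN peak in either Sen list, so almost none could gain it and nothing is read from that contrast. In senescence, 2 of the 1555 lost p-c-JUN (0.129%), against 0.307% of all joined regions; a region of this group was in both Pro lists by rule.

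The p-c-JUN peaks of the 1555 regions had median ranks at 37.2% and 28.1% of the Pro lists, 10.7% and 7.89% of the Sen lists, and 12.6% and 10.7% of the siFOXF1/2 lists. A percent rank depends on the length of its list, and the Pro lists held 24808 and 32136 peaks against 70177 and 93443 in Sen. Ranks are therefore compared between sets within a list and not between lists. A second set, chosen after the data had been seen, was the 8201 p-c-JUN regions of both Pro lists without FOXF1 in any of the 4 FOXF1 lists. Its p-c-JUN peaks ranked lower in each of the same lists, at 51.2% and 42.6%, 26.6% and 21.3%, and 23.7% and 22.8%. The 1459 regions with FOXF1 in all 4 lists and p-c-JUN in both Pro lists ranked ahead of the group in Pro, at 21.1% and 15.5%. They ranked behind it in Sen, at 12.6% and 10.1%, and after siFOXF1/2, at 14.4% and 13.6%. In regions where both factors were gained, p-c-JUN ranked at 48.4% and 34.7% of the Sen lists. As a description within bands of equal strength, p-c-JUN peaks in the strongest 20% of the Sen replicate 1 list were found again in siFOXF1/2 replicate 1 at 99.9% of the 1076 regions of this group that fell in the band, at 99.7% of the set without FOXF1, and at 89.9% of the regions where both were gained. In the band from 40% to 60% of the list these shares were 93.9%, 95.1% and 60%. The group and the set without FOXF1 thus lay within 2 points of each other in both of these bands. For Sen replicate 2 peaks from 40% to 60% of the list, the 2 shares were 87% and 91.6% in siFOXF1/2 replicate 1. In siFOXF1/2 replicate 2 they were 92.8% and 94.4%. From 80% to 100% of that list the group held only 3 regions, of which 0 and 1 were found again, against 84.2% and 87% of the set without FOXF1.

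**Figure D2:**
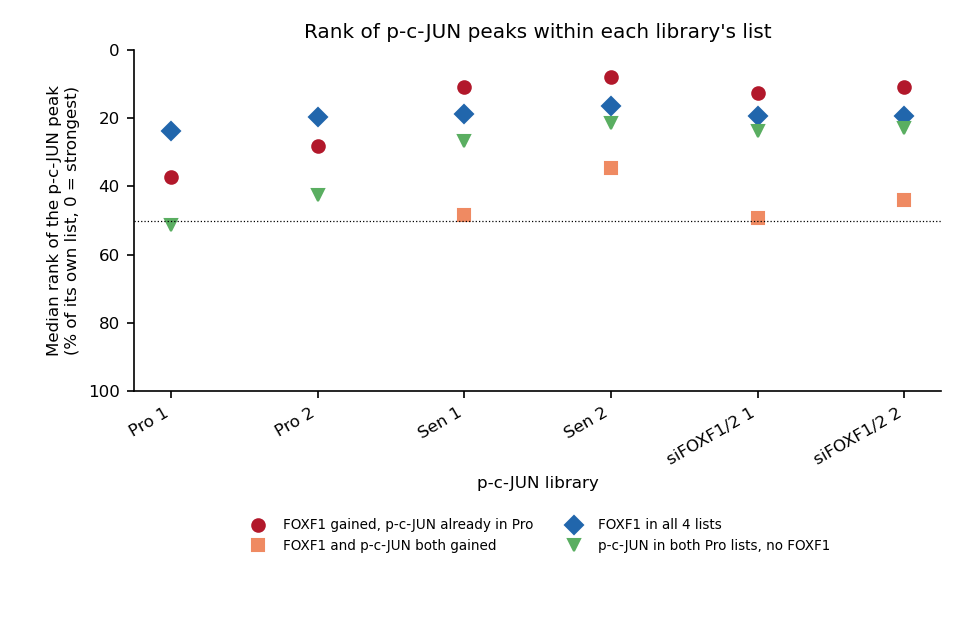
Median rank of the p-c-JUN peak as a percent of its own list (y axis, strongest at the top), by library, for 4 sets of regions. Lists differ in length, so ranks can be compared between sets within a library but not between libraries. The regions of this group (circles) rank ahead of the p-c-JUN regions without FOXF1 (triangles) in all 6 lists, at 10.7% against 26.6% in Sen replicate 1. FOXF1 in all 4 lists (diamonds) ranks ahead of the group in Pro, at 23.6% and 19.6% against 37.2% and 28.1%. It ranks behind the group in the Sen and siFOXF1/2 lists. The set in which both were gained has no peak in Pro by its rule.

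**Figure D3:**
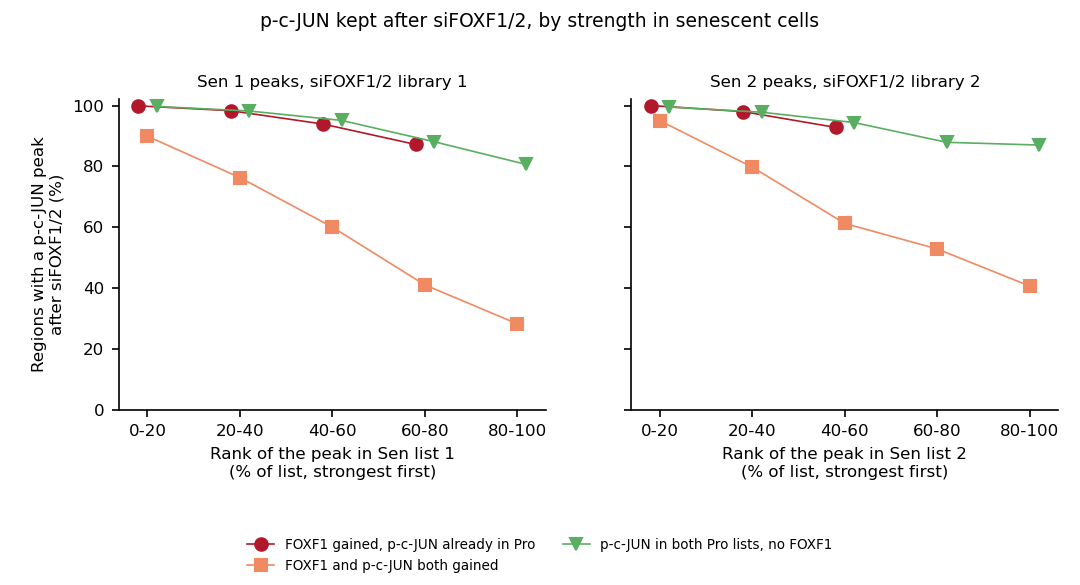
Share of regions with a p-c-JUN peak after siFOXF1/2 (y axis, percent), in bands of the peak's rank in the Sen list of the same replicate number (x axis); bands with under 20 regions are left out and points are set apart sideways. Circles (this group) and triangles (p-c-JUN without FOXF1) lie close together, and squares (both gained) lie below them, at 60% against 93.9% in the middle band on the left.

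FOXF1 itself was almost never called at these regions after either knockdown. Only 1 region had a peak in each of the 2 siFOXF1/2 lists, 2 regions in all, and none had one in both lists. After the JUN knockdown, 8 regions had a peak in replicate 1 and 9 in replicate 2, which made 17, and again none in both. The 19 regions of both knockdowns became 77 without FOXF1 Pro replicate 2, 63 without FOXF1 Sen replicate 1, 35 without p-c-JUN Pro replicate 1, and 11 or 10 without either JUN knockdown library. Of all joined regions, FOXF1 was lost after siFOXF1/2 at 26.2% and after the JUN knockdown at 25.4%; presence in both Sen lists was part of the rule here, so nothing is read from that contrast. The knockdown lists were very short, at 186 and 133 peaks for siFOXF1/2 and 378 and 883 for the JUN knockdown, and the JUN knockdown has no FOXF1 control library of its own. Regions with FOXF1 in all 4 Pro and Sen lists, whose FOXF1 peaks in Sen cells were stronger, had one at 2.74% and 2.49% after siFOXF1/2 and at 5.42% and 5.91% after the JUN knockdown. The part of list length and of peak strength in these shares was not tested.

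FOXF1 and p-c-JUN summits lay close together. The median distance from the FOXF1 summit to the p-c-JUN summit was 84 bp and 79 bp in the Pro libraries, 72 bp and 77 bp in the Sen libraries, and 75 bp and 73 bp after siFOXF1/2. The mean of the 2 Pro medians was 81.5 bp. Within 100 bp lay 54.3% and 57.5% of the regions' p-c-JUN summits in Pro. The FOXF1 summits of the 2 Sen replicates were themselves a median of 67 bp apart. The FOXF1 position used for the distances to p-c-JUN was the mean of those 2 summits, so the measures are unlike. Over the 4 pairs of single lists, FOXF1 in Sen with p-c-JUN in Pro, the medians ran from 80 to 93 bp. p-c-JUN summits moved less: medians were 49 bp between the Pro replicates, 41 bp between the Sen replicates and 47 bp from Pro to Sen in replicate 1. H3K27ac summits lay farther off, with medians from 134 bp in Pro replicate 1 to 218 bp in Sen replicate 4. Overlap with p-c-JUN was part of the rule, so the nearness is in part a product of it. Regions with FOXF1 in all 4 lists had 65 bp and 61 bp in Pro. Only those that overlapped a p-c-JUN peak were measured (1536 and 1654), so the same limit holds for them.

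**Figure D4:**
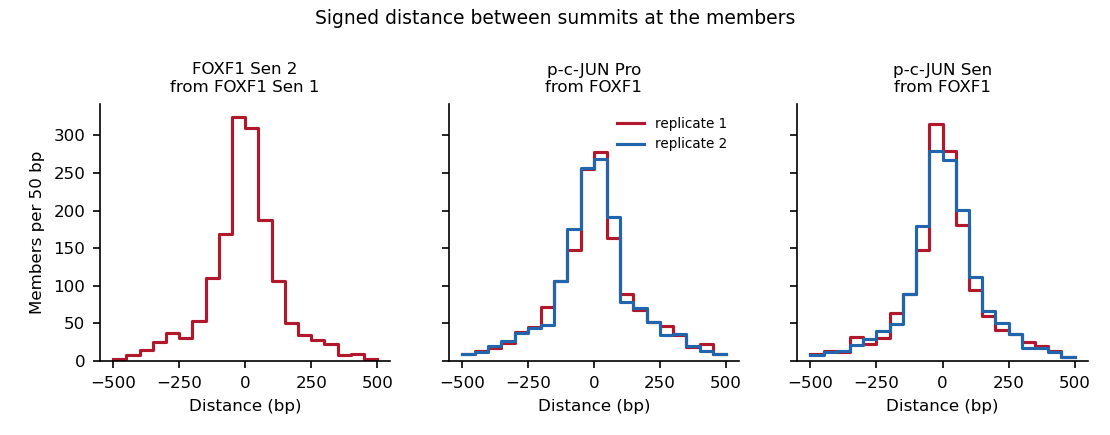
Regions per 50 bp (y axis) by the signed distance between summits (x axis, bp): between the FOXF1 Sen lists, and from the FOXF1 summit to p-c-JUN in Pro and Sen cells, with replicates in red and blue. All distributions centre on 0, and the medians of the absolute distances are 67 bp between FOXF1 replicates and 72 to 84 bp to p-c-JUN.

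H3K27ac was already present at most of these regions in proliferating cells. Of the 1555, 93.2% and 92.9% had an H3K27ac peak in the Pro libraries, and 1396 (89.8%) had one in both. In Sen replicates 1 and 2 the shares were 93.6% and 75.1%, and 1095 regions (70.4%) had H3K27ac in all 4 of these lists. Only 38 regions (2.44%) had it in both Pro and neither Sen list, and 13 (0.836%) in both Sen and neither Pro list. The mean share was 93.1% ± 0.182 in Pro and 84.3% ± 13.1 in Sen (SD, n = 2 each), a difference of −8.71 points (SE 9.23) with an exact permutation p of 1. Sen replicate 2 decided its sign: without that library the difference was 0.514.

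The regions where FOXF1 came without earlier p-c-JUN had H3K27ac less often in proliferating cells. Where both factors were gained, the Pro shares were 57.1% and 61.5% and the Sen shares 84.2% and 68%. Where FOXF1 was gained without p-c-JUN (1022 regions), they were 40% and 43.4%, then 60% and 42.4%. Over the 10 H3K27ac libraries of the Pro, Sen, siFOXF1/2 and JUN knockdown groups, the 1555 regions had H3K27ac at a share 21.9 points above that of the regions where both were gained, ranging from 7.15 to 36.1 points and higher in 10 of 10 libraries. An exact two-sided sign-flip test over libraries gave p = 0.00195, the smallest that 10 libraries allow, and 0.00244 after Benjamini-Hochberg adjustment over the 5 sets compared in this way. The difference from regions without p-c-JUN was 44.6 points, ranging from 29.6 to 62.2 and higher in 10 of 10 libraries, with the same exact p of 0.00195 (adjusted 0.00244). The same regions are counted in every library, so this test covers the spread between libraries only.

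Against regions that had FOXF1 in all 4 lists, the mean difference in H3K27ac was 1.65 points, ranging from −5.71 to 5.29, and the share was higher in 8 of 10 libraries, with an exact sign-flip p of 0.137. In the 4 libraries of the sip300/CBP comparison, which were not among the 10 and had the shortest lists, the share was lower in the group: the differences were −0.715 and −1.68 points in the control and −3.48 and −3.24 after knockdown. That call depends on settings: the difference was 4.23 points (exact p = 0.00781) when only the base of the FOXF1 summit was asked for H3K27ac, 3.26 (exact p = 0.0176) and 3.64 (exact p = 0.00195) without FOXF1 Pro replicate 1 or 2, 2.47 (exact p = 0.00781) without H3K27ac JUN knockdown replicate 2, and −1.53 without FOXF1 Sen replicate 1. Against p-c-JUN regions of both Pro lists that never had FOXF1, the share was higher in 10 of 10 libraries by 20.1 points (11.9 to 31.9; exact p = 0.00195, adjusted 0.00244). These p-c-JUN regions without FOXF1 had H3K27ac at 81.3% and 80.5% in Pro and at 68.4% and 43.2% in Sen replicates 1 and 2. Against all FOXF1 regions the share was higher by 26.1 points (17.7 to 31.9), with the same exact p. H3K27ac peaks at the 1555 had median ranks at 20.5% and 21% of the Pro lists, against 18.5% and 18.8% for FOXF1 in all 4 lists, 46.4% and 43.7% where both factors were gained and 31.2% and 30.8% for p-c-JUN without FOXF1. Median region widths were 499 bp in this group, 501 bp where both were gained, 448.5 bp without p-c-JUN, 651 bp for FOXF1 in all 4 lists and 491 bp for p-c-JUN without FOXF1.

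**Figure D5:**
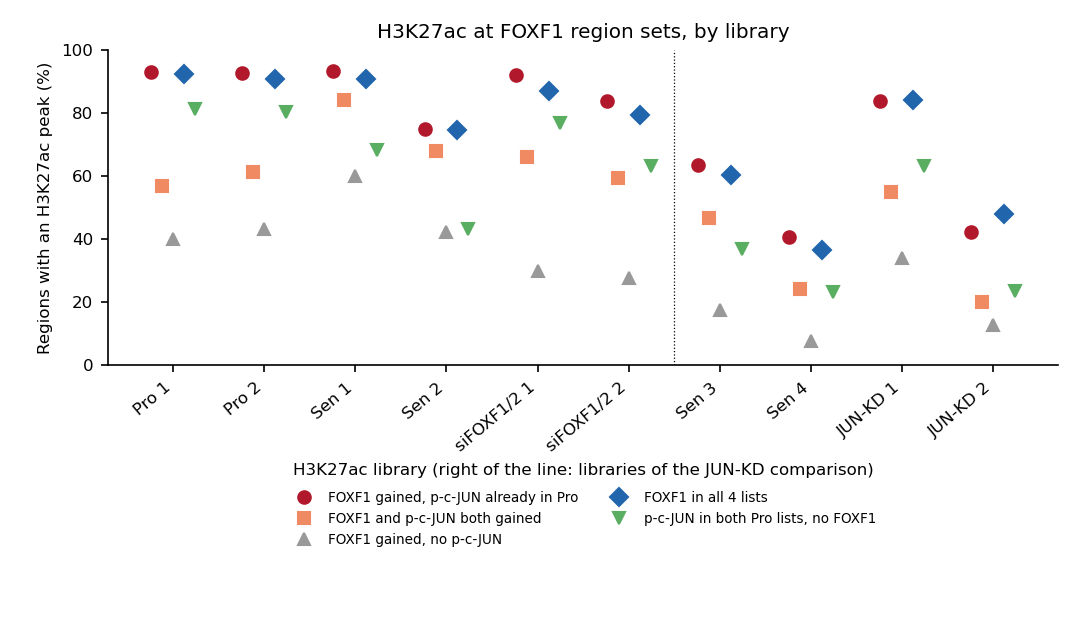
Share of regions with an H3K27ac peak (y axis, percent) in each of 10 libraries (x axis), for this group (circles) and 4 other sets. In Pro the group lies at 93.2% and 92.9%, beside FOXF1 in all 4 lists (diamonds) and above the sets in which FOXF1 was gained with or without p-c-JUN (squares and upward triangles).

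Gains of H3K27ac in senescence were rare here, where few regions lacked it beforehand. No H3K27ac peak in either Pro list was found at 57 regions of the group (3.67%) and at 5.03% of those with FOXF1 in all 4 lists. That share was 12.4% for p-c-JUN without FOXF1, 32.5% where both factors were gained and 49.8% where FOXF1 was gained without p-c-JUN. Regions of the group that overlapped an H3K27ac region gained in senescence (both Sen replicates 1 and 2, neither Pro) numbered 16 (1.03%), against 4.51% of all joined H3K27ac regions. The share was 13.1% where both factors were gained and 9.59% where FOXF1 was gained without p-c-JUN, and it was below that of the group both for FOXF1 in all 4 lists (0.635%) and for p-c-JUN in both Pro lists without FOXF1 (0.512%). With 1 library left out the 16 became 59 without FOXF1 Sen replicate 1, 33 without p-c-JUN Pro replicate 1, 32 or 38 without H3K27ac Pro replicate 1 or 2, and 34 without H3K27ac Sen replicate 2. Losses numbered 27 (1.74%), against 9.56% of all joined H3K27ac regions and 11.8% of p-c-JUN regions without FOXF1. In the other FOXF1 sets the share lost was 1.47% where both factors were gained, 2.84% without p-c-JUN and 2.54% where FOXF1 was in all 4 lists. The strongest of the 16 was chr2:11723072-11723813 (742 bp). H3K27ac folds there were 6.44 and 4.94 in Sen replicates 1 and 2 and 3.83 in replicate 3, with no peak in Pro, in Sen replicate 4 or after siFOXF1/2. FOXF1 folds were 6.13 and 9.73, and p-c-JUN folds were 5.55 and 5.27 in Pro, 10.9 and 11.9 in Sen, and 7.14 and 9 after siFOXF1/2. At chr12:89769518-89769858 (341 bp), H3K27ac was called in all 4 Sen lists, with folds from 3.04 to 3.92, and also in both siFOXF1/2 lists, with folds of 4.16 and 3.54.

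After siFOXF1/2, H3K27ac was found at 92.3% and 83.9% of the 1555 regions. The mean was 88.1% ± 6 against 84.3% ± 13.1 in Sen replicates 1 and 2 (SD, n = 2 each), a difference of 3.76 points (SE 10.2) with an exact permutation p of 1, and without Sen replicate 2 it was −5.47. Region by region, H3K27ac was lost after siFOXF1/2 at 12 of the 1555 (0.772%), against 4.26% of all joined regions, and gained at 16 (1.03%), against 5.51%. The share lost was 8.38% where both factors were gained, 13.2% where FOXF1 was gained without p-c-JUN, and 2.54% where FOXF1 was in all 4 lists. It was 0.622%, near that of the group, where p-c-JUN was in both Pro lists without FOXF1. In the same order of sets, the share gained was 1.24%, 0.587%, 0.879% and 5.95%. The change in the difference between this group and the regions where both were gained, from Sen to siFOXF1/2, was 17 points with an exact permutation p of 0.333, the smallest that 2 libraries against 2 allow.

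In the JUN knockdown comparison the libraries of 1 group differed more than the groups did. H3K27ac was found at 63.7% and 40.8% of the 1555 regions in Sen replicates 3 and 4 and at 83.9% and 42.5% after the knockdown. The means were 52.3% ± 16.1 and 63.2% ± 29.3 (SD, n = 2 each), a difference of 11 points (SE 23.6) with an exact permutation p of 0.667. It was −9.74 without knockdown replicate 1, and −0.45 without Sen replicate 4. Region by region, 77 gained H3K27ac (4.95%), against 7.66% of all joined H3K27ac regions and 4.5% of all FOXF1 regions. H3K27ac was lost at 32 (2.06%), against 2.74% and 1.52%. Where both factors were gained, 3.3% gained and 3.24% lost it. The shares gained and lost were 4.31% and 0.294% where FOXF1 was gained without p-c-JUN. They were 6.79% and 1.32% where FOXF1 was in all 4 lists, and 5.62% and 1.51% for p-c-JUN in both Pro lists without FOXF1. In the sip300/CBP comparison, whose lists were the shortest, 11.3% and 2.38% of the regions had H3K27ac in the control and 4.63% and 2.19% after knockdown. That difference was −3.41 points (SE 4.6), with an exact permutation p of 0.667, and 1.03 without control replicate 1.

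To see how H3K27ac varied with strength inside the group, the regions were split into 3 equal parts by their p-c-JUN rank in Pro. H3K27ac in Pro was found at 95.6% and 95.4% of the strongest part and 90.2% and 90.5% of the weakest, while in Sen replicate 1 the values were 92.7% and 94.4%. After the JUN knockdown, 88.1% of the strongest, 84% of the middle and 79.7% of the weakest part had H3K27ac in replicate 1, and 46.8%, 40.2% and 40.5% in replicate 2. Split by FOXF1 rank in Sen, H3K27ac in Pro was at 92.3% and 91.9% of the strongest part and 93.4% and 94% of the weakest. p-c-JUN after siFOXF1/2 was found at 100.0% of the 519 regions with the strongest p-c-JUN in Pro in both libraries, and at 95.9% and 97.5% of the weakest 518. H3K27ac was in all 10 lists at 342 regions (22%) and in none of the 10 at 10 (0.643%).

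The regions were scattered singly over the genome. Another FOXF1 region of the Sen cells lay within 10 kb of 234 of them (15%), against 15.5% where both factors were gained, 19% where FOXF1 was gained without p-c-JUN and 17.1% where it was in all 4 lists. Grouped by gaps of at most 10 kb, 1525 stood alone and 15 runs held 2. Chromosome 1 held the most, 137 (8.81%, against 9.15% of all FOXF1 regions), and chromosome 6 held 127 (8.17%, against 7.03%).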

How the data were processed

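Peak lists were deposited in narrowPeak format, 1 per library, with none pooled. Bowtie2 2.3.4.1, SAMtools 1.9, deepTools 3.1.1, MACS2 3.0.0 and build hg19 are named per the submitters' processing notes, which list no parameters; a control library and the use of the spike-in are not given in the sources used here. Per the labels' protocols, libraries were sequenced as paired ends. The deposited fold ratio and −log10 p and q are the peak caller's values. Peak ranks were taken within a list. Folds of different lists were printed side by side and correlated across regions, but were not tested between lists. Peaks outside chromosomes 1 to 22 and X, 475 of 1123812 (0.0423%), were left out. Fragments at summits were solved from fold and p; mapped reads are unknown. Python 3.11.15, NumPy 2.4.6 and SciPy 1.17.1 were used. Groups came from titles; each region counted as having a peak where 1 bp overlapped. Conditions were compared over libraries with exact permutation tests. Alternatives were a −log10 q of 5 or more, a 50% overlap, summits within 200 bp, lists of equal length, each library left out, a replicate block and other Sen libraries.

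The regions and comparison sets were chosen with earlier results of these data known. Regions named are the 10 with the best worst rank by FOXF1 −log10 q in Sen, and 5 each by p-c-JUN in Pro, by gained H3K27ac and by p-c-JUN lost after siFOXF1/2 (only 3 existed), with those nearest the rule's limits; a part of them is printed. Among these, chr10:80383547-80383844 and chr13:25085737-25086688 were picked as examples after their values were seen. Coordinates are hg19, counted from 1. No hg19 genome or annotation was used here, so no sequences, motifs or nearby genes are given. The rule was tested on simulated lists planted without noise and recovered all planted regions.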

Additional observations from a re-analysis of the deposited data

How the results depend on the processing

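Of 191 values recomputed under alternatives, 144 kept their direction and their side of the threshold or moved by less than the spread. With 2 libraries against 2 the smallest possible p is 0.333. Those comparisons could change direction but not their side of the threshold. The number of regions, 1555, depends on list depth: it was 711 with a −log10 q of 5 or more and 245 with lists of equal length, and leaving out 1 library gave 1659 to 5949, the highest without FOXF1 Sen replicate 1 (3165 without FOXF1 Pro replicate 2). Both differences in H3K27ac from the regions that gained FOXF1 with or without p-c-JUN kept p = 0.00195 by an exact sign-flip test under every alternative in which all 10 libraries were used.

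The difference from FOXF1 in all 4 lists, 1.65 points, passed the threshold with a −log10 q of 5 or more (3.7, exact p = 0.0137), a 50% overlap (2.81, exact p = 0.0293) and H3K27ac over the summit base (4.23, exact p = 0.00781, chosen after seeing the data), and ranged from −1.53 to 3.64 with 1 library left out. It passed without FOXF1 Pro replicate 1 (3.26, exact p = 0.0176), FOXF1 Pro replicate 2 (3.64, exact p = 0.00195) or H3K27ac JUN knockdown replicate 2 (2.47, exact p = 0.00781), and was negative without FOXF1 Sen replicate 1 (−1.53), FOXF1 Sen replicate 2 (−0.0755) or p-c-JUN Pro replicate 1 (−1.04). The median summit distance, 81.5 bp, was 66.5 with a −log10 q of 5 or more, 75 with a 50% overlap, 55 with summits within 200 bp, 54 with lists of equal length, and 75 to 89 with 1 library left out.

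The H3K27ac difference between Pro and Sen, −8.71 points, was −24.8 with all 4 Sen libraries and −40.8 with Sen replicates 3 and 4 alone, and that between Sen and siFOXF1/2, 3.76, was 19.8 with all 4 Sen libraries. Sen replicates 3 and 4 came from a second deposit, apart from Pro and siFOXF1/2, and their lists were shorter (48859 and 26694 peaks). In these values condition cannot be told apart from deposit or list length. With 1 library left out, the H3K27ac difference between Pro and Sen ranged from −17.9 to 0.514 points, that between Sen and siFOXF1/2 from −5.47 to 13 (−0.482 without siFOXF1/2 replicate 1, and 0 with lists of equal length), that of the JUN knockdown from −9.74 to 31.7 (−0.45 without Sen replicate 4), and that of sip300/CBP from −7.85 to 1.03 (0.281 with a −log10 q of 5 or more); the cause was not tested. Regions that gained H3K27ac, 16, numbered 5 of 711 with a −log10 q of 5 or more, 7 of 1061 with summits within 200 bp and 6 of 245 with equal lists. They numbered 4 with all 4 Sen libraries, 8 with Sen replicates 3 and 4, and 13 to 59 with 1 library left out, where the number of regions could change too. Regions with FOXF1 after a knockdown, 19, numbered 1 of 711 with a −log10 q of 5 or more, 10 of 1061 with summits within 200 bp, 0 of 245 with equal lists, and 10 to 77 with 1 library left out. Shorter lists hold fewer peaks by construction; otherwise the cause was not tested.

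Replicate numbers are shared without a stated pairing, and same-numbered libraries deviated together with correlations from −0.05 to 0.11. A replicate block left each difference as it was (p-c-JUN −0.579, exact p = 0.5; H3K27ac −8.71 and 3.76, exact p = 1 each; 11 and −3.41, exact p = 0.5 each) and changed no call; 0.5 is the smallest p that 2 pairs allow. Motif windows of other sizes and other distances to listed genes were not run, since no hg19 genome or annotation was used here.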
